A study of Bos taurus with 10 samples.

Results

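Early response feedback regulators are genes that a cell switches on within minutes of a signal and whose products then damp, shape or end that response. They were described here in longissimus dorsi, a back muscle, from 10 Hanwoo, the native cattle breed of Korea. The set held 10 genes named by symbol: ZFP36, BTG2, DUSP1, SOCS3, GADD45B, IER2, IER3, IER5, KLF4 and KLF6. A gene counted as measured if a probe set of the Affymetrix GeneChip Bovine Genome Array carried that symbol and no other in the platform annotation, and the brightest probe set stood for the gene. By this rule 7 genes were measured, through 10 probe sets of 24016, and BTG2, IER5 and KLF6 were not measured. Of the 7, 6 were among the 6271 genes tested, and SOCS3 lay below the filter on signal.

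The 10 animals form 1 group with no treatment, and each gave 1 array of poly(A) RNA. The label of 1 animal gives an age of about 2 years. Beef quality measurements of these animals were not used, and the genes are described by their level, their spread between animals and the genes that varied with them. In whole muscle, fewer cells of a type and less RNA per cell cannot be told apart. Levels are on the log2(signal + 16) scale after quantile normalization, where a difference of 1 is about a doubling of signal for bright genes and stands for more than that in dim ones. Probe sets differ in how strongly they light up, so no order of the genes by level is read.

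As background, growth factors, stretch, stress and cytokines reach these genes through MAP kinases, the serum response factor, NF-kappaB and STAT proteins. The transcription factors FOS, JUN and EGR1 come on in the same wave. ZFP36 (tristetraprolin) binds AU-rich elements of unstable transcripts and brings in the enzymes that remove their poly(A) tails. DUSP1 is a phosphatase that switches off MAP kinases, and SOCS3 blocks cytokine receptors that signal through JAK kinases. GADD45B is a stress sensor that acts on MAP kinase signalling and DNA demethylation. IER2 and IER3 are small proteins of the early wave, IER3 being linked to cell survival, and KLF4 is a zinc finger transcription factor.

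Median deposited intensity per array ran from 111 to 134, and correlations between arrays ran from 0.901 to 0.959. Of 12 skeletal muscle markers 11 were measured, with a median level of 15.68, and their mean level per animal lay between 15.67 and 15.77. Animal 5 stood apart in the added poly(A) control RNAs, whose 3' probe sets exceeded the 5' ones by 2.67 log2 units in that animal and by 0.78 to 1.06 in the others. Animals 3 and 7 stood apart in genes of liver-made plasma proteins, with a mean level of 11.37 and 11.36 over 6 tested genes, and at most 9.75 in the others.

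ZFP36 had a broad spread with no single extreme animal. Its level was 11.46 in animal 10, 11.39 in animal 1, 11.16 in animal 9 and 11.13 in animal 2. It was 10.48 in animals 4 and 8, 9.97 in animal 3, 9.66 in animal 6, 9.62 in animal 5 and 9.52 in animal 7. The animals thus spread over 1.94 log2 units, a 3.84-fold range, and the mean was 10.49 ± 0.76 (SD, n = 10). On the deposited linear scale the same probe set ran from 724 to 2810. The SD was 0.72 or more whichever animal was left out.

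DUSP1 was a bright gene, at 13.07 ± 0.55 (SD, n = 10), above 98.1% of all probe sets. Its lowest level was 12.04 in animal 7, its median 13.07 and its highest 14.10 in animal 5. Animal 1 (13.54) came next at the top and animal 2 (12.50) at the bottom, while the other 6 animals lay between 12.94 and 13.27. The spread thus sat mostly in 4 animals. Without animal 5 the SD was 0.44, and without animal 7 it was also 0.44.

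KLF4 stood at 11.58 ± 0.69 (SD, n = 10), with a lowest level of 9.96 in animal 7, a median of 11.56 and a highest level of 12.59 in animal 5. Animals 2 and 3 had 12.11 and 12.10, and the other 6 animals lay between 11.32 and 11.75. The low value of animal 7 stood alone. Without it the SD was 0.42. Animals 5 and 7 were the highest and the lowest animal for both DUSP1 and KLF4.

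GADD45B had the largest SD of the tested members, and 1 animal held most of it. Animal 10 stood at 11.54, animal 7 at 9.85 and animal 1 at 9.47, and the other 7 animals lay between 8.38 and 9.12. The mean was 9.25 ± 0.90 (SD, n = 10), and without animal 10 the SD was 0.44. On the deposited linear scale animal 10 read 2965, against a median of 463 over all 10 animals.

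IER2 and IER3 varied least by the brightest probe set of each gene. IER2 stood at 9.04 ± 0.38 (SD, n = 10), from 8.48 in animal 7 to 9.57 in animal 8, with a median of 9.05. IER3 stood at 9.004 ± 0.43 (SD, n = 10), from 8.24 in animal 5 to 9.54 in animal 8, with a median of 9.13. Animal 8 was thus the highest for both genes, while the lowest animal differed. IER2 had 3 probe sets, the dimmer ones with means of 6.81 and 4.45. Across the animals the brightest had r = 0.515 with the next (permutation p = 0.115, n = 10, adjusted p = 0.192 over 5 pairs of probe sets compared). Spearman's rho was 0.6 (permutation p = 0.0729, n = 10, adjusted p = 0.182), and r was 0.581 without the 2 animals farthest from the median. The second IER2 probe set was lowest in animal 10, at 4.73, where the brightest read 8.66. Its SD was 0.87 (n = 10) and its range 3.10 log2 units, so the small spread of IER2 holds for the brightest probe set.

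SOCS3 gave little signal. Its brighter probe set had a mean of 5.33 ± 0.53 (SD, n = 10), above 18.2% of all probe sets and below the filter at 6.98, where a signal of 0 would read 4. Deposited intensities ran from 11.8 to 55.0, with the highest values in animal 5 (55.0), animal 8 (38.6) and animal 2 (38.5). The other SOCS3 probe set had a mean of 4.52, and the pair had r = -0.451 (permutation p = 0.196, n = 10, adjusted p = 0.244) and -0.413 without the 2 farthest animals. Their rho was -0.212 (permutation p = 0.564, n = 10, with an adjusted p of 0.564). The pair of SOCS3 probe sets thus did not rank the animals alike, and no order of the animals is read from this gene.

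**Figure D1:**
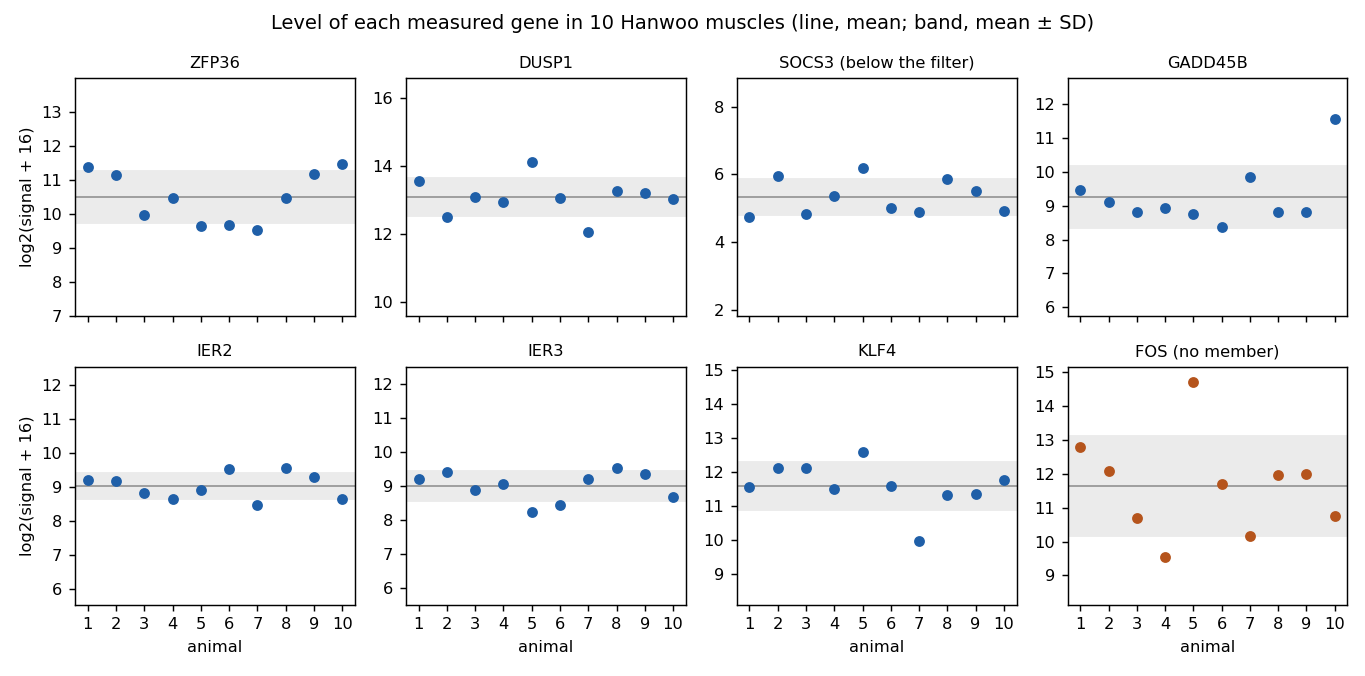
Level of the 7 measured genes and of FOS in each of the 10 animals, on the log2(signal + 16) scale with an equal span on every vertical axis; the line is the mean and the band the mean ± SD. GADD45B is set apart by animal 10 at 11.54, KLF4 by animal 7 at 9.96, and ZFP36 spreads over 1.94 log2 units with no single extreme animal.

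Set side by side, 4 of the 6 tested genes had an SD over 0.5, as did 22.1% of all tested genes. They were GADD45B, ZFP36, KLF4 and DUSP1. The median SD was 0.62 over the 6 genes and 0.36 over all 6271 tested genes. The count was 2 without animal 7, and 2 without animals 3, 5 and 7, where GADD45B and ZFP36 had SDs of 1.04 and 0.65 and KLF4 had 0.27. ZFP36 had a larger SD than 95.3% of tested genes, and IER2 a larger one than 54.8%. A wide spread was not particular to the members. Of the gene lists described below, 8 of 11 early transcription factors, 7 of 10 glucocorticoid targets and 10 of 22 relatives had an SD over 0.5. So did 7 of 8 fibroblast, 6 of 7 leukocyte, 4 of 5 adipocyte and 4 of 8 smooth muscle markers. The count was 2 of 15 for kinase and cytokine genes, 1 of 6 for endothelium markers and 0 of 11 for deadenylation genes.

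**Figure D2:**
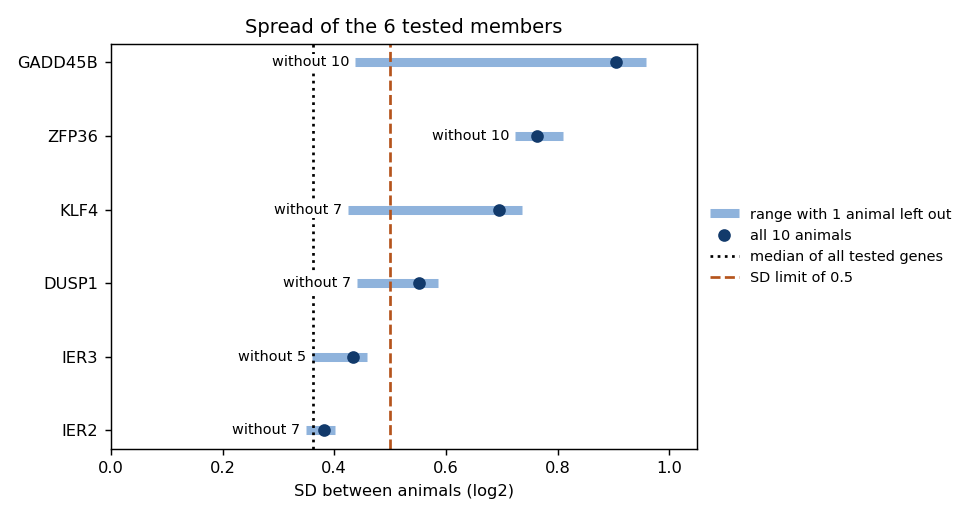
SD between animals for the 6 tested members (points, all 10 animals) with the range obtained when each animal is left out in turn (bars) and the animal whose absence gives the lowest SD; the dotted line is the median of all tested genes (0.36) and the dashed line the limit of 0.5. The lowest value for GADD45B is 0.44 without animal 10 and for KLF4 0.42 without animal 7, while ZFP36 stays at 0.72 or above.

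The animals did not line up in 1 order over the set. Animal 7 was the lowest animal for 4 of the 6 tested genes, ZFP36, DUSP1, IER2 and KLF4, yet was second highest for GADD45B. Animal 5 was the highest for DUSP1 and KLF4 and the lowest for IER3. Animal 10 was the highest for ZFP36 and GADD45B and animal 8 for IER2 and IER3. The number of the 6 genes above their own mean ran from 1 in animal 4 to 5 in animal 1.

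To ask whether the regulators varied with the early transcription factors, every tested gene was fitted against the level of FOS, a partner in the AP-1 factor and no member of the set. FOS stood at 11.63 ± 1.47 (SD, n = 10), from 9.53 in animal 4 to 14.69 in animal 5, and its 2 probe sets varied together (r = 0.913, permutation p = 8e-05, n = 10, adjusted p = 0.0004). Their rho was 0.976 (permutation p = 4e-05, n = 10, with an adjusted p of 0.0002), and r was 0.959 without the 2 farthest animals. The dimmer FOS probe set was highest in animal 1, at 11.12, with animal 5 at 10.88. It spanned 3.68 log2 units, and the brighter one 5.16. With limma, 0 of the 6 tested members passed an adjusted p of 0.05, and of all 6270 genes 1 rose (0.0159%) and 0 fell. At an unadjusted p below 0.05 there were 886 genes, 14.1% of those tested, among them DUSP1 and KLF4.

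DUSP1 had a slope of 0.41 log2 per SD of FOS (SE 0.12, limma p = 0.00617, adjusted p = 0.268 over all genes), with 7 of 10 animals on the same side of both means. KLF4 had 0.38 (SE 0.18, limma p = 0.05, adjusted p = 0.353), with 5 of 10 animals on the same side. IER2 had 0.18 (SE 0.12, limma adjusted p = 0.507) and shared the side in 9 of 10 animals. IER3 had -0.13 (SE 0.13) and GADD45B -0.26 (SE 0.25), while ZFP36 had -0.01 (SE 0.22), with limma adjusted p = 0.701, 0.668 and 0.993. Slopes of the members thus lay on both sides of 0, 3 above and 3 below. Slopes with animals left out are per SD of FOS among the animals kept. That SD was 1.47 with all 10 animals and 1.06 without animal 5, so the sizes do not compare directly. Animal 5 was the highest in DUSP1, in KLF4 and in the brightest FOS probe set. Without animal 5 the slopes of DUSP1 and KLF4 were 0.23 and 0.19, that of IER3 was 0.11 and that of ZFP36 was 0.34. The KLF4 slope was 0.20 without animal 7, and without animals 3, 5 and 7 DUSP1 had 0.11 and KLF4 had 0.00785.

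**Figure D3:**
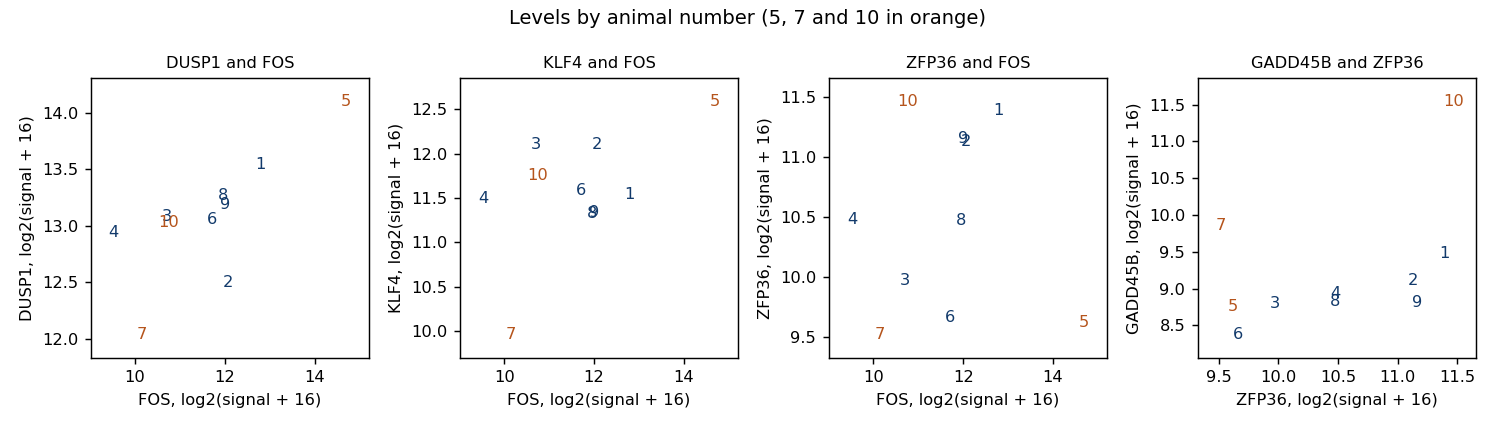
Levels of DUSP1, KLF4 and ZFP36 against FOS and of GADD45B against ZFP36, each point drawn as the animal's number on log2(signal + 16) axes, with animals 5, 7 and 10 in orange. Animal 5 lies at the top right for DUSP1 and KLF4 and at the bottom right for ZFP36, and animal 10 is the highest for both GADD45B and ZFP36.

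The gene that rose with FOS was EGR1, a zinc finger factor of the same early wave, at 1.49 log2 per SD of FOS (SE 0.21, limma adjusted p = 0.0449, 9 of 10 animals on the same side). This call was kept in only 3 of 10 alternative settings. It was lost under the deposited scaling, with a pseudocount of 1 and with no filter. The ranks of FOS, or the poly(A) control difference as a second covariate, also removed it. It further rested on animal 5 and on taking the brightest probe set of each gene. The slope was 0.82 without animal 5 (limma adjusted p = 0.998). It was 0.71 (limma adjusted p = 0.505) with every gene, FOS included, taken as the mean of its probe sets. The call was also lost without any 1 of animals 2, 3, 4, 6, 7, 8 and 10. The next genes by p had positive slopes without passing: CCN1, a secreted matrix protein of the early wave, at 0.87 (adjusted p = 0.208), SEL1L3 at 0.62 and LOC515676 at 1.27 (both adjusted p = 0.214). On the negative side stood ADGRF5 (-0.46), UBE2V2 (-0.52), PFDN5 (-0.71) and DPM2 (-0.88), with adjusted p from 0.214 to 0.267 in limma. Without animal 5, per the smaller SD of FOS, the slopes were 0.47 for CCN1, 0.34 for SEL1L3 and 0.72 for LOC515676. They were -0.33 for ADGRF5, -0.21 for UBE2V2, -0.17 for PFDN5 and -0.35 for DPM2. Without animals 3, 5 and 7 that of ADGRF5 was -0.22.

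Of 16 early transcription factors listed, 13 were measured and 11 tested, FOS among them. Against FOS, 9 of the other 10 slopes were above 0 with a median of 0.27, while 45.9% of all tested genes had a slope above 0 and their median was -0.02. EGR1 passed and the other 9 did not. Their slopes were 1.28 for ATF3, 0.82 for NR4A2, 0.68 for JUN, 0.30 for JUNB, 0.25 for NR4A1 and for SRF, 0.24 for MYC, 0.03 for FOSB and -0.01 for JUND. Without animal 5, per the smaller SD of FOS, the slope of JUN was 0.31, and 7 of the 10 slopes were above 0 with a median of 0.29. Of 43 relatives of the members and other feedback genes, 24 were measured and 22 tested, 0 passed against FOS and 15 slopes were above 0 (median 0.15, and 0.0597 without animal 5). TOB1, a relative of BTG2 and the brightest of the list at 13.38, had 0.36 (limma adjusted p = 0.268). CISH, a cytokine feedback gene with the largest SD of the list (1.21), had 0.44 (limma adjusted p = 0.557), and KLF10, also bright and variable, had -0.33. ZFP36L1, the sister gene of ZFP36, had 0.35, and NFKBIA, the inhibitor of NF-kappaB, had -0.42. Against ZFP36, 0 genes of either list passed, with 6 of 11 slopes above 0 for the early factors and 9 of 22 for the relatives, and against DUSP1 0 passed, with 10 of 11 and 14 of 22 above 0. The median slope of the early factors with DUSP1 was 0.28, and 0.15 without animal 5, per the smaller SD of DUSP1 in the animals kept.

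ZFP36 was fitted next, to ask which genes varied with this regulator. Of 6270 genes 1 rose (0.0159%) and 0 fell in limma, and 1027 genes (16.4%) had an unadjusted p below 0.05. None of the 5 other tested members passed: GADD45B had a slope of 0.42 log2 per SD of ZFP36 (SE 0.24, limma adjusted p = 0.383), IER3 0.20, KLF4 0.11, IER2 0.06 and DUSP1 0.03, with adjusted p up to 0.941. FOS had -0.01 (limma adjusted p = 0.993). The slope of GADD45B was 0.07 without animal 10, the highest animal for both genes.

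The gene that rose with ZFP36 was UBTD1, which encodes a ubiquitin-like domain protein, at 0.98 log2 per SD of ZFP36 (SE 0.10, limma adjusted p = 0.00244, 8 of 10 animals on the same side). UBTD1 read 8.63 in animal 10, 8.37 in animal 9, 8.24 in animal 1, 8.11 in animal 2 and 8.05 in animal 8. It read 7.61 in animal 4, 6.66 in animal 3, and between 6.11 and 6.21 in animals 5, 6 and 7. The 3 animals lowest in UBTD1 were also the 3 lowest in ZFP36. The call held with each animal left out in turn, with slopes from 0.93 to 1.03 and adjusted p from 0.000568 to 0.0212, and with the ranks of ZFP36 in place of its level (adjusted p = 0.0253). It was lost without animals 3, 5 and 7 together, where the slope was 0.77 (adjusted p = 0.13). UBTD1 was dim, with a mean of 7.42, and was not among the genes tested when the filter stood at the 75th percentile.

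Next by p with ZFP36 were PPP4C, a protein phosphatase subunit, at 0.43, the endosomal sorting gene STAM2 at 0.67 and the receptor FGFR4 at 0.71, all with limma adjusted p = 0.0744. With negative slopes stood ARHGEF17 (-0.42) and COL27A1 (-0.69), also at 0.0744, and CAVIN2 (-0.41) and the gap junction gene GJA1 (-0.43) at 0.111. FGFR4 passed with the ranks of ZFP36 (adjusted p = 0.0253) and without animal 3 (0.0267), COL27A1 without animal 3 (0.0421), and PPP4C with the filter at the 75th percentile (0.0423). For ARHGEF17 each of the 10 animals was on the opposite side of its mean from ZFP36. ZFP36 acts through deadenylation, and of 20 genes of that machinery 13 were measured and 11 tested. Of these 0 passed, 4 slopes were above 0 and the median was -0.01, with -0.24 for CNOT7, a catalytic subunit of the deadenylase, -0.02 for its scaffold CNOT1 and 0.16 for the poly(A) binding protein gene PABPC1. With FOS and with DUSP1, 0 of the 11 passed. No gene of this list had an SD over 0.5.

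Among 29 kinase and cytokine genes upstream of the members, 20 were measured and 15 tested. Of these 0 passed with ZFP36, and 13 slopes were above 0 with a median of 0.10, beside 51.4% of slopes above 0 and a median of 0.01 over all tested genes. The transcription factor STAT5B had 0.45 (limma adjusted p = 0.111), the receptor gene IL6R had 0.24, and the kinases MAP2K6 and JAK1 had 0.12 each. With FOS and with DUSP1, 0 of the 15 passed, and MAP2K6 had -0.37 with FOS. Of 16 glucocorticoid targets, a list that includes the muscle genes FBXO32 and PDK4, 10 were measured and tested and 0 passed with ZFP36, FOS or DUSP1. CEBPB had 0.61 with ZFP36 (limma adjusted p = 0.119) and CEBPD 0.20, while PDK4 and GLUL, the brightest, had -0.14 and 0.04.

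**Figure D4:**
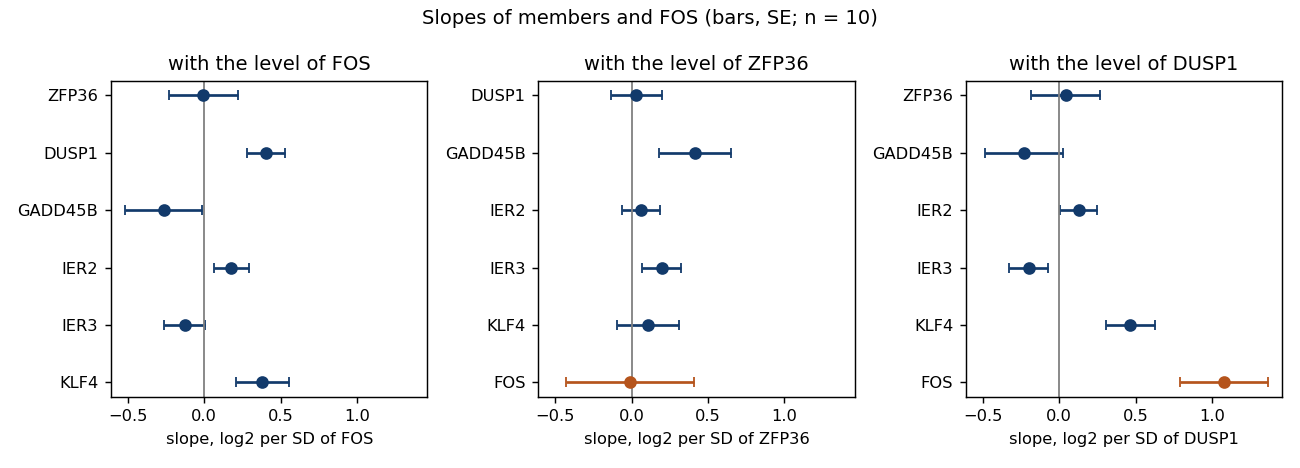
Slopes of the tested members and of FOS, in log2 per SD of the covariate gene, fitted on the level of FOS, ZFP36 or DUSP1 (points, slope; bars, SE; n = 10). With FOS, DUSP1 at 0.41 and KLF4 at 0.38 lie highest and ZFP36 lies at -0.01, and 0 members passed in any of the 3 fits.

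DUSP1 took the place of SOCS3 as the third covariate, since SOCS3 was not among the tested genes. In limma 0 of 6270 genes passed in either direction (0%), and 568 (9.06%) had an unadjusted p below 0.05. Slopes were above 0 in 3 of the 5 other tested members and in 45.5% of all genes. Of these 5 members KLF4 was the only one with an unadjusted p below 0.05, at a slope of 0.47 log2 per SD of DUSP1 (SE 0.16, limma p = 0.0123, adjusted p = 0.542). FOS had 1.08 (SE 0.29, limma p = 0.0025, adjusted p = 0.542), with 0.53 without animal 5 and 0.38 without animals 3, 5 and 7. IER2 had 0.13, ZFP36 0.04, IER3 -0.20 and GADD45B -0.23. The KLF4 slope was 0.13 without animal 7, 0.33 without animal 5 and -0.20 without animals 3, 5 and 7. The smallest p in each direction belonged to PHC1 (0.46), CCN1 (0.84), SEL1L3 (0.59) and NEU3 (0.42), and to MCRIP2 (-0.36), PRDX2 (-0.32), DDIT3 (-0.39) and UBE2V2 (-0.48), all with limma adjusted p = 0.542. Without animal 5 they had 0.27, 0.47, 0.32 and 0.23, and -0.21, -0.19, -0.27 and -0.19, in the same order. Without animals 3, 5 and 7 CCN1 had 0.0538, SEL1L3 had 0.0566 and DDIT3 had -0.14.

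GADD45B, KLF4, IER2 and IER3 were fitted in the same way, a choice made after the first fits were seen. With GADD45B 7 of 6270 genes fell (0.112%) and 0 rose in limma, and 461 (7.35%) had an unadjusted p below 0.05. None of the 5 other members passed. THBS2, a secreted thrombospondin, fell by 0.79 log2 per SD of GADD45B (limma adjusted p = 0.0187), and AQP4, the water channel of fast muscle fibres, had a slope of -0.997 (adjusted p = 0.0333). CCDC162P (-1.09), SLC25A16 (-0.93), MBLAC1 (-0.72) and HEXD (-0.62) fell at adjusted p = 0.0333. Each of these 6 genes was lowest in animal 10, the animal highest in GADD45B, and without animal 10 the count was 0. With KLF4, IER2 and IER3 as covariates 0 genes passed in limma (0%), and 359, 127 and 921 genes (5.73%, 2.03% and 14.7%) had an unadjusted p below 0.05. KLF4 and IER3 lay on opposite sides of their means in 9 of 10 animals, at a slope of -0.20 for IER3 per SD of KLF4 (limma adjusted p = 0.814).

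Markers of other cells were set beside the members. Against FOS the slopes of endothelium markers were above 0 in 0 of 6 tested genes (median -0.14), of leukocyte markers in 1 of 7 (-0.14), of fibroblast markers in 1 of 8 (-0.19), of smooth muscle markers in 1 of 8 (-0.10) and of adipocyte markers in 1 of 5 (-0.24). Against ZFP36 they were above 0 in 1 of 6, 3 of 7, 2 of 8, 4 of 8 and 1 of 5, and against DUSP1 in 0 of 6, 3 of 7, 2 of 8, 3 of 8 and 1 of 5. Over all tested genes the share above 0 was 45.9% with FOS, 51.4% with ZFP36 and 45.5% with DUSP1. Counts without animal 5 were not recorded for these marker genes. None of these genes passed any of the 3 fits, nor did HBA, the only 1 of 5 red cell markers tested, at a level of 6.99. The mean level per animal ran from 8.48 to 9.21 over the endothelium markers, from 6.87 to 8.53 over the leukocyte markers and from 9.69 to 12.08 over the fibroblast markers. Leukocyte (6.87) and smooth muscle (10.15) markers were lowest in animal 5, the highest animal in the brightest FOS probe set. Endothelium and fibroblast markers were lowest in animal 1, and adipocyte markers in animal 2. The part of these markers in the members' spread was not tested.

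The 6 tested genes of liver-made plasma proteins had a median slope of -1.17 with FOS and -1.17 with DUSP1, all 6 below 0, and -0.15 with ZFP36. Without animals 3, 5 and 7 only 3 of these genes were above the filter, with median slopes of 0.0541 with FOS and 0.0725 with DUSP1. None of them passed, C3 being nearest with -1.01 per SD of FOS (limma adjusted p = 0.268). Animal 7, high in these plasma protein genes, was the lowest animal for DUSP1 and KLF4, while animal 3, as high in them, stood at 13.08 for DUSP1 and 12.10 for KLF4. Animal 5, the highest for DUSP1 and KLF4, was the lowest in the plasma protein genes, at a mean of 6.44. Their median slope was -1.16 with IER2 and -0.78 with KLF4, but 0.79 with GADD45B and 0.37 with IER3. What links these levels was not tested.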

How the data were processed

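Poly(A) RNA of 10 muscle samples was hybridised to 1-colour Affymetrix arrays, per the labels. The authors deposited a linear intensity for every probe set of each array. Neither labels nor headers used here name the summarising software. The mean without the lowest and highest 2% lay between 500.177 and 500.203 on each array, a common scaling. Deposited intensities were turned into log2(signal + 16) and quantile normalized without 112 control probe sets. The 24016 remaining probe sets were named where the platform annotation listed 1 symbol (13292), and not where it listed several (86) or none (10638). The brightest probe set stood for each of 9155 genes, and 6271 with a mean above the median probe set (6.98) were tested.

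Covariation was fitted with limma 3.58.1 in R 4.3.3, with Benjamini-Hochberg adjustment over all genes at 0.05, and the code was tested on simulated data. The covariate gene's level was in SD units, the SD taken anew over the animals in each fit. Correlations between probe sets used two-sided permutation tests with 100000 resamples (scipy 1.17.1) and adjustment over 5 pairs. The members, the 13 other gene lists and the tests were chosen with earlier results of these data known. Named genes are the members, FOS, up to 6 per direction and fit among those past the test (the 4 smallest p per direction if under 3 passed), and of each list those past a test, the 2 brightest and the 2 with the largest SD. EGR1 apart, the other early factors, ZFP36L1, NFKBIA, STAT5B and C3 were named after their values were seen. Alternatives were other scalings, pseudocounts of 1 and 64, filters, averaged probe sets, the poly(A) control difference as a second covariate, ranks and each animal left out. Nothing but the sample numbers marks the samples as separate cattle, so p-values measure the spread between these samples, and the number of arrays limits the precision.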

Additional observations from a re-analysis of the deposited data

Results flagged for a closer look

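Of 35 genes reported by name with a fit or as members, 10 had 1 animal standing far from the other 9 by Dixon's test, which flags about 1 in 20 groups by chance. Members were 2 of them: GADD45B at 11.54 in animal 10, with the next animal at 9.85, and KLF4 at 9.96 in animal 7, with the next at 11.32. Animal 10 was also far below the others for SLC25A16 (4.51), THBS2 (5.09), MBLAC1 (5.97) and HEXD (5.49), which were named because they fell with GADD45B. Animal 5 stood apart for UBE2V2 (8.30), PFDN5 (9.60), NEU3 (10.59) and PRDX2 (12.49), which were named for their slopes with FOS or DUSP1. Both were highest in that animal by the brightest probe set.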

How the results depend on the processing

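No paired analysis was possible because the 10 animals form 1 group. The setting without animals 3, 5 and 7 together, gene lists with animals left out, and the fits on GADD45B, IER2, IER3 and KLF4 were chosen after seeing the data. The count of members past the fits on FOS, ZFP36 and DUSP1 was 0 under every alternative run, and it was not recorded for the other fits. Members with an SD over 0.5 numbered 2 to 5 over 8 alternative settings, the setting without animals 3, 5 and 7 giving 2. They numbered 2 to 4 with 1 animal left out. Tested genes with an SD over 0.5 numbered 908 with a pseudocount of 64, 3621 with no filter, 620 with the filter at the 75th percentile and 908 to 1494 with 1 animal left out. With FOS 0 genes passed under the deposited scaling, a pseudocount of 1, no filter, the mean of probe sets, the poly(A) covariate, ranks, or without animals 3, 5 and 7, and 0 to 2 with 1 animal left out. With ZFP36 2 genes passed under ranks, 0 without animals 3, 5 and 7, and 1 to 3 with 1 animal left out. With DUSP1 0 to 1 passed with 1 animal left out. With GADD45B the 7 became 1 under median centring, 13 with a pseudocount of 1, 0 with a pseudocount of 64, no filter, the 75th percentile filter or ranks, 11 with the poly(A) covariate, 19 without animals 3, 5 and 7, and 0 to 22 with 1 animal left out. With IER3 1 passed with no filter and 0 to 1 with 1 animal left out. The causes were not tested.

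Of 1079 slopes under alternatives, 963 kept their direction and side of the threshold and 37 changed sign. Most of these slopes did not pass in the main fit, so keeping that side says little about how stable they are. Size was not part of the count. KLF4 with FOS counted as kept in all 10 settings, although its slope of 0.38 went as low as 0.00785. For ZFP36 with FOS the slope was 0.0234 under the deposited scaling, 0.0195 under median centring, 0.12 as the mean of probe sets, 0.48 with the poly(A) covariate, 0.20 with ranks and 0.14 without animals 3, 5 and 7. For FOS with ZFP36 it was 0.0431 and 0.0371 under those scalings, 0.21 as the mean, 0.50 with the poly(A) covariate and 0.23 without those animals. For IER3 with FOS it was 0.15 with the poly(A) covariate and 0.14 without those animals, and for IER3 with GADD45B 0.19 under ranks. Without those animals it was -0.16 for IER2 with ZFP36, 0.000741 for GADD45B, 0.00572 for IER3 and -0.20 for KLF4 with DUSP1, and 0.000233 for DUSP1 and 0.088 for KLF4 with GADD45B. With 1 animal left out, slopes with FOS ran from -0.14 to 0.34 for ZFP36 and from -0.16 to 0.11 for IER3. Slopes with ZFP36 ran from -0.155 to 0.20 for DUSP1, from -0.0303 to 0.15 for IER2, from -0.17 to 0.29 for KLF4 and from -0.285 to 0.48 for FOS. Slopes with DUSP1 ran from -0.26 to 0.34 for ZFP36 and from -0.000981 to 0.22 for IER2, and with GADD45B from -0.0909 to 0.20 for IER3. Without animals 3, 5 and 7 the median slope of the genes of liver-made plasma proteins was 0.0541 with FOS and 0.0725 with DUSP1.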
